A study of Mus musculus with 9 samples.

Results

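The genes described here are 10 markers of T cells, read in whole mouse ear skin. They comprise the signalling chains of the T cell receptor complex (Cd3d, Cd3e, Cd3g and Cd247), the coreceptors Cd4 and Cd8a, the cytokine receptor chains Il7r and Il2ra, and Foxp3 and Ctla4, which mark regulatory T cells. They were chosen by name, as rows of the expression table whose annotation gives exactly 1 symbol equal to that of the gene. Each of the 10 genes was found, each through 1 probe set, among 19938 genes tested in all. The ears came from female C57BL/6 mice aged 7 to 9 weeks, in 3 groups of 3 arrays. Anisomycin, an antibiotic that blocks protein synthesis and activates stress kinases, had been painted on the inner and outer sides of the ear at 2 mg/ml in 99.5% ethanol, 10 µl a side, once daily for 5 days. Imiquimod, a Toll-like receptor 7 ligand that causes a psoriasis-like dermatitis in mice, had been applied as 10 mg of a 5% cream once daily for 5 days. The third group is labelled as vehicle. The labels used here do not say whether that vehicle was ethanol or cream base, or for how long it was applied, so effects of a solvent cannot be told apart from those of the agents.

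The T cell receptor binds antigen through a pair of variable chains that have almost no cytoplasmic tail. Its signal passes through the CD3 gamma, delta and epsilon chains and the zeta chain (Cd247), whose tyrosine motifs are phosphorylated by Lck and then bind the kinase ZAP-70. Mouse skin holds several T cell populations: dendritic epidermal T cells with a gamma-delta receptor, dermal gamma-delta T cells, and CD4, CD8 and regulatory T cells of the dermis. IL-7 receptor alpha (Il7r) is a survival receptor of resting T cells and innate lymphoid cells, and pairs with Crlf2 to form the receptor of the epithelial cytokine TSLP. IL-2 receptor alpha (Il2ra) makes the IL-2 receptor highly sensitive and is carried by regulatory T cells and activated T cells, and also by some dendritic cells and innate lymphoid cells. Foxp3 is the transcription factor that defines regulatory T cells, and Ctla4 encodes an inhibitory receptor that binds CD80 and CD86. In RNA of a whole tissue, fewer cells of a type and less RNA per cell cannot be told apart.

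The 10 genes did not move as a block. In anisomycin ears Il7r, Il2ra, Ctla4 and Foxp3 were higher than in vehicle ears, and Cd3g, Cd3e and Cd247 were lower. In imiquimod ears the same 3 receptor chains were lower, and of the other genes only Il2ra passed the test. Expression values are log2 units of the deposited table, differences are tested with limma over all genes, and a gene counts as called where its adjusted p (Benjamini-Hochberg) is below 0.05. Both treatments are set against the same 3 vehicle arrays, so these comparisons are not independent. Array medians were 6.01 to 6.03 in treated and 6.08 to 6.10 in vehicle arrays. For anisomycin against vehicle 7 of the 10 genes were called, 4 higher and 3 lower, where 45.6% of all genes tested were called (22.3% higher and 23.3% lower). For imiquimod against vehicle 4 of 10 were called, 1 higher and 3 lower, a share near the 42.7% of all genes (20.4% higher and 22.4% lower). Between the treatments 4 of 10 were called, where 20.4% of all genes were. These 4 were higher with anisomycin, where 10.8% of all genes were called higher and 9.59% lower. Of the 10 genes, limma called 0 lower with anisomycin than with imiquimod, and 0 were lower at an unadjusted p under 0.05. Arrays of the compared groups did not overlap for 7 of the 10 genes in each comparison. For anisomycin against vehicle these were 4 higher and 3 lower, where 51.3% of all genes did not overlap (24.9% higher and 26.4% lower). For imiquimod against vehicle they were 3 higher and 4 lower, where 51.8% of all genes did not overlap (24.4% higher and 27.4% lower). For anisomycin against imiquimod they were 7 higher, where 39.3% of all genes did not overlap (21.4% higher and 17.9% lower). The median difference over the 10 genes was 0.10 for anisomycin against vehicle, -0.06 for imiquimod against vehicle and 0.20 for anisomycin against imiquimod, beside -0.01, -0.03 and 0.01 over all genes.

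**Figure D1:**
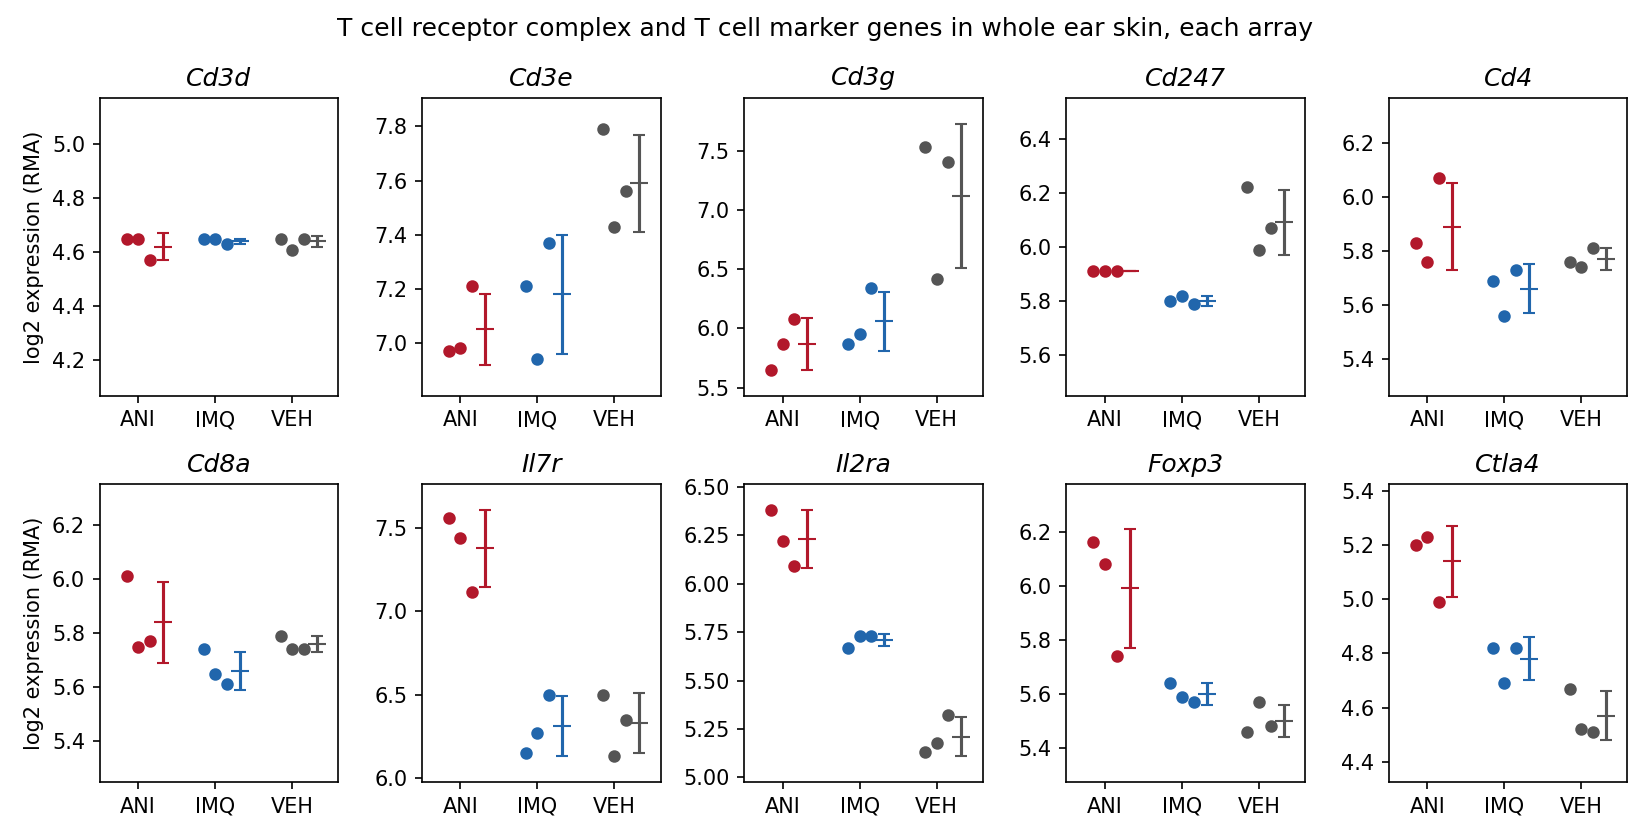
Log2 expression of the 10 genes in each array of the anisomycin (ANI), imiquimod (IMQ) and vehicle (VEH) groups, 3 arrays a group, with the mean and SD beside the points; the vertical axes differ between genes. Vehicle arrays lie above the treated arrays for Cd3e, Cd3g and Cd247, and anisomycin arrays lie above the others for Il7r, Il2ra, Foxp3 and Ctla4.

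Among the receptor chains the largest change was that of Cd3g, which encodes CD3 gamma. Cd3g read 5.65, 5.87 and 6.08 in anisomycin ears, 5.87, 5.95 and 6.34 in imiquimod ears, and 7.53, 6.42 and 7.41 in vehicle ears. The treated arrays lay below every vehicle array, and vehicle replicate 2 stood well under the other vehicle arrays. Cd3g was lower by a log2 difference of -1.26 with anisomycin (SE 0.27, adjusted p = 0.00365, 0.419 times the vehicle level) and of -1.07 with imiquimod (SE 0.27, adjusted p = 0.00975, 0.477 times the vehicle level). Cd3e, which encodes the epsilon chain found in every CD3 dimer, read 6.97, 6.98 and 7.21 in anisomycin ears, 7.21, 6.94 and 7.37 in imiquimod ears, and 7.79, 7.43 and 7.56 in vehicle ears. Again no treated array reached the vehicle arrays, although the gap between the highest imiquimod and the lowest vehicle array was small. The difference of Cd3e was -0.54 with anisomycin (SE 0.13, adjusted p = 0.0062) and -0.41 with imiquimod (SE 0.13, adjusted p = 0.0248). The imiquimod call of Cd3e ended without imiquimod replicate 1 or 2 or vehicle replicate 1 or 3, with differences of -0.43, -0.30, -0.31 and -0.43 and an adjusted p of up to 0.0904.

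Cd247, the zeta chain, which natural killer cells also use, had a smaller difference. It read 5.91 in each of the 3 anisomycin arrays, 5.80, 5.82 and 5.79 in imiquimod ears, and 6.22, 5.99 and 6.07 in vehicle ears. The groups did not overlap, and the vehicle arrays were more spread than the treated ones. Cd247 was lower with imiquimod by a difference of -0.29 (SE 0.06, adjusted p = 0.00335) and with anisomycin by a difference of -0.19 (SE 0.06, adjusted p = 0.031). The anisomycin call of Cd247 is weak. It ended with arrays centred on their medians (-0.14, adjusted p = 0.103) and with the quantile normalization repeated (-0.13, adjusted p = 0.12). It ended too with the fit of those groups alone (adjusted p = 0.075), without any 1 anisomycin array (-0.19, adjusted p of up to 0.0785), without vehicle replicate 1 (-0.12, adjusted p = 0.0819) and after cyclic loess normalization (-0.08, adjusted p = 0.338). Of 4 natural killer cell markers measured, Ncr1, an activating receptor of these cells, rose with anisomycin (0.28, adjusted p = 0.00636) and with imiquimod (0.33, adjusted p = 0.00272), and the other 3 were not called. The mean level of the 4 markers was 4.83 to 4.87 in anisomycin arrays, 4.89 to 4.95 in imiquimod arrays and 4.63 to 4.93 in vehicle arrays, and the part of these cells in the change of Cd247 was not tested.

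Cd3d, the delta chain, was not called in any comparison. It read 4.65, 4.65 and 4.57 in anisomycin ears, 4.65, 4.65 and 4.63 in imiquimod ears, and 4.65, 4.61 and 4.65 in vehicle ears. Exactly the same deposited value stood in 6 of the 9 arrays. A value repeated in at least 6 arrays was found for 1.57% of the genes tested. This probe set scarcely varied in any group. The difference was -0.02 for anisomycin (95% interval -0.12 to 0.09) and 0.01 for imiquimod (95% interval -0.10 to 0.11), both against vehicle and not called. Intervals here and further on are not adjusted for multiple tests. Cd3d and Ctla4 had means over the 9 arrays below 5.29, the level under which the dimmest 30% of genes lie, and signal over background was not tested.

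Between anisomycin and imiquimod ears the receptor chains were not called. The difference was -0.12 for Cd3e (95% interval -0.41 to 0.16), -0.19 for Cd3g (-0.79 to 0.42) and 0.11 for Cd247 (-0.03 to 0.25, adjusted p = 0.266). The interval of Cd3g was the widest of the 10 genes. For Cd247 the anisomycin arrays lay above the imiquimod arrays without overlap.

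The windows just upstream of the 3 chains that fell are shown because these genes moved together. They are the 250 bases before the annotated start, from RefSeq on GRCm38.p6, which had an entry for 9 of the 10 genes. They lie at chr9:45009612-45009861 (minus strand), chr9:44980432-44980681 (minus strand) and chr1:165788431-165788680 (plus strand). Capitals mark matches, on either strand, to letters bound by ETS factors (AGGAAGT), RUNX factors (TGTGGTT), E-proteins (CACCTG) or STAT factors (TTCNNNGAA). Matches to a simplified kappa B pattern, called the NF-kB letters here, are marked as well. That pattern is not the full kappa B consensus, and other sites of the consensus were not searched.
Cd3e: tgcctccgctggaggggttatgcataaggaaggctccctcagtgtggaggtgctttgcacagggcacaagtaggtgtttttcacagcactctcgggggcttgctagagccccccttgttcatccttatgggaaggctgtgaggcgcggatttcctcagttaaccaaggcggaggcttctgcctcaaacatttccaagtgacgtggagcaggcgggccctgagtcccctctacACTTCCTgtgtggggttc
Cd3g: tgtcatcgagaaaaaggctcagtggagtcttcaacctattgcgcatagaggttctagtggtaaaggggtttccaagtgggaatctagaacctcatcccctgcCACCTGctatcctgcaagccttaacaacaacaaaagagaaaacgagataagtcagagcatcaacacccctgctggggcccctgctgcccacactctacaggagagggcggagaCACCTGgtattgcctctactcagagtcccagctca
Cd247: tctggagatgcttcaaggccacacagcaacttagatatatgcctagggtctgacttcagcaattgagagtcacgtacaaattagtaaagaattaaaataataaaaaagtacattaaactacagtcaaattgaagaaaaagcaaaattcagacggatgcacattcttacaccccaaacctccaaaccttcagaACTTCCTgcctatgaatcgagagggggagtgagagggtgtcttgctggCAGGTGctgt
The ETS letters stood 18 to 12 bases before the start of Cd3e and 58 to 52 bases before that of Cd247, and were not found in the window of Cd3g. Such letters occur in 7.69% of the 32851 promoter windows of the same length. The E-protein letters, present in 17.2% of windows, occurred at 2 places in Cd3g and 1 in Cd247. They were found in 4 of the 9 genes with an entry, the others being Cd3d, not called, and Ctla4, which rose with anisomycin. These matches describe letters and show no binding.

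The coreceptors, which bind MHC class II (CD4) and class I (CD8) beside the receptor, were not called in any of the 3 comparisons. Cd4 read 5.83, 5.76 and 6.07 in anisomycin ears, 5.69, 5.56 and 5.73 in imiquimod ears, and 5.76, 5.74 and 5.81 in vehicle ears. Anisomycin arrays overlapped the vehicle arrays, with replicate 3 the highest, while imiquimod arrays lay just below them. The difference was 0.12 for anisomycin against vehicle (95% interval -0.07 to 0.31) and -0.11 for imiquimod against vehicle (-0.30 to 0.08). Cd8a read 6.01, 5.75 and 5.77 in anisomycin ears, 5.74, 5.65 and 5.61 in imiquimod ears, and 5.79, 5.74 and 5.74 in vehicle ears. Apart from anisomycin replicate 1, these values lie close together. Its difference was 0.08 with anisomycin (-0.09 to 0.25) and -0.09 with imiquimod (-0.26 to 0.07). Anisomycin arrays lay above imiquimod arrays without overlap for both coreceptors, by 0.23 for Cd4 (SE 0.08, adjusted p = 0.0895) and 0.18 for Cd8a (SE 0.08, adjusted p = 0.137), neither of them called. The beta chain Cd8b1, named after its values were seen, stood at 0.01 with anisomycin and -0.06 with imiquimod and was not called either.

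The cytokine receptor chains were higher in anisomycin ears. Il7r read 7.56, 7.44 and 7.12 in anisomycin ears, 6.15, 6.27 and 6.50 in imiquimod ears, and 6.50, 6.13 and 6.35 in vehicle ears. Anisomycin arrays stood apart, and the imiquimod and vehicle arrays covered the same range. Il7r was higher with anisomycin than with vehicle by 1.05 (SE 0.14, adjusted p = 0.000182, 2.07 times the vehicle level) and higher than with imiquimod by 1.07 (SE 0.14, adjusted p = 0.00112). For imiquimod against vehicle the difference was -0.02 (95% interval -0.33 to 0.29). Il2ra read 6.38, 6.22 and 6.09 in anisomycin ears, 5.67, 5.73 and 5.73 in imiquimod ears, and 5.13, 5.18 and 5.32 in vehicle ears. Its 3 groups were fully separated, in that order. Il2ra rose by 1.02 with anisomycin (SE 0.08, adjusted p = 8.2e-06) and by 0.50 with imiquimod (SE 0.08, adjusted p = 0.00077), and the treatments differed by 0.52 (SE 0.08, adjusted p = 0.00272).

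The upstream windows of these receptor genes, at chr15:9529877-9530126 (minus strand) and chr2:11642542-11642791 (plus strand), are given with the same marks for comparison with the CD3 genes.
Il7r: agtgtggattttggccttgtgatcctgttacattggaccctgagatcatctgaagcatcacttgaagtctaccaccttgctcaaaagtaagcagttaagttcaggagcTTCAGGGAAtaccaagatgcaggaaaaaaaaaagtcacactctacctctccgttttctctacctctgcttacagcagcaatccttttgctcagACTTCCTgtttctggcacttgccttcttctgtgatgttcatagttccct
Il2ra: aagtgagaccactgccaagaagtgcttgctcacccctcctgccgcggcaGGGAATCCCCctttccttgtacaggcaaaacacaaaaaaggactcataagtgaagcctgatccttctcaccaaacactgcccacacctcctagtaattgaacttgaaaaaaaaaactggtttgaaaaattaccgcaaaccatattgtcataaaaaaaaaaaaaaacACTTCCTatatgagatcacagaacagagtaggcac
The ETS letters lay 49 to 43 bases before the start of Il7r and 35 to 29 bases before that of Il2ra. They were found in 5 of the 9 genes with an entry: Cd3e and Cd247, which fell, Il7r and Il2ra, which rose in anisomycin ears, and Cd3d, which was not called in any comparison. In Cd3d they lay 199 to 193 bases before the start, overlapping a match to the STAT letters. Il2ra also held the NF-kB letters, 201 to 192 bases before its start. The simplified pattern searched for these letters occurs in 4.77% of windows. Il7r held the STAT letters, which occur in 7.02% of windows. The STAT letters were found in 3 of the 9 genes: Il7r, Cd3d and Foxp3. The RUNX letters, in 4.40% of windows, were found in none of the 9 genes.

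The regulatory T cell genes were highest in anisomycin ears. Foxp3 read 6.16, 6.08 and 5.74 in anisomycin ears, 5.64, 5.59 and 5.57 in imiquimod ears, and 5.46, 5.57 and 5.48 in vehicle ears. Anisomycin replicate 3 lay close to the imiquimod arrays, and these lay at or just above the vehicle arrays. Foxp3 was higher with anisomycin than with vehicle by 0.49 (SE 0.10, adjusted p = 0.00243) and than with imiquimod by 0.39 (SE 0.10, adjusted p = 0.0215), and imiquimod differed from vehicle by 0.10 (95% interval -0.12 to 0.32). Ctla4 read 5.20, 5.23 and 4.99 in anisomycin ears, 4.82, 4.69 and 4.82 in imiquimod ears, and 4.67, 4.52 and 4.51 in vehicle ears. No array of 1 group overlapped another group. The rise of Ctla4 was 0.57 with anisomycin (SE 0.08, adjusted p = 0.000262), and anisomycin exceeded imiquimod by 0.36 (SE 0.08, adjusted p = 0.0121). With imiquimod the difference from vehicle was 0.21 (SE 0.08, adjusted p = 0.0598) and just missed the threshold. It passed with arrays centred on their medians (adjusted p = 0.0349), with the quantile normalization repeated (0.0252), with the fit of those groups alone (0.0452), after cyclic loess normalization (0.0157), without anisomycin replicate 3 (0.0297) and without vehicle replicate 1 (0.0386). The calls between the treatments rest on few arrays. That of Foxp3 ended without anisomycin replicate 1 or 2 or any 1 imiquimod array, at 0.31 to 0.41 and an adjusted p of up to 0.0818, and that of Ctla4 without anisomycin or imiquimod replicate 2, at 0.32 and an adjusted p of 0.0516.

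**Figure D2:**
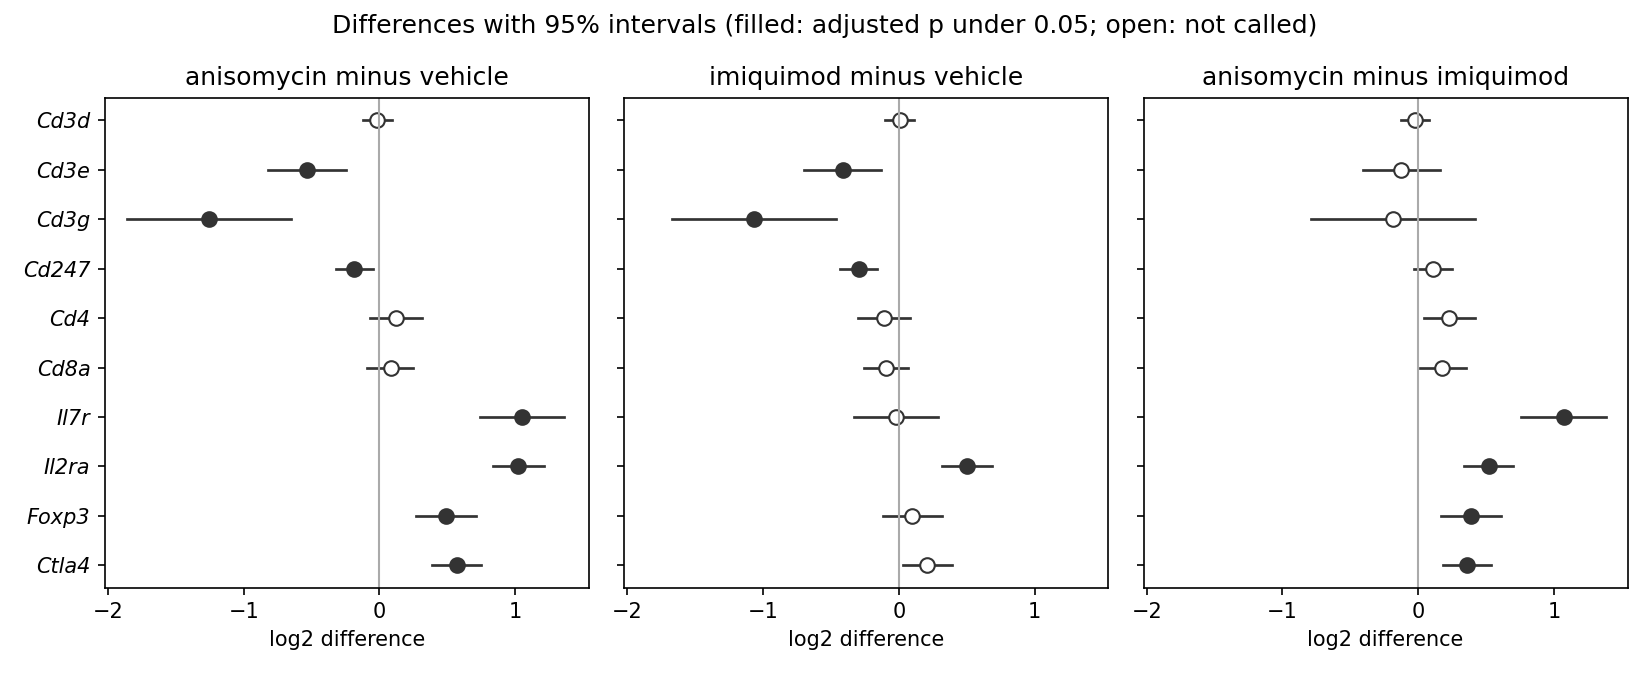
Log2 differences of the 10 genes for the 3 comparisons, with unadjusted 95% intervals from limma (n = 3 arrays a group); filled points are called at an adjusted p under 0.05. Cd3e, Cd3g and Cd247 lie below 0 in both comparisons with vehicle, and Il7r, Il2ra, Foxp3 and Ctla4 lie above 0 for anisomycin against vehicle and against imiquimod.

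Within the anisomycin group, replicate 3 had the highest values of Cd3e, Cd3g and Cd4 and the lowest of Il7r, Il2ra, Foxp3 and Ctla4. Its departures from the group mean were 0.15 for Cd3e and 0.21 for Cd3g, and -0.25 for Il7r and -0.25 for Foxp3. In the vehicle group, replicate 2 had the lowest Cd3e, Cd3g and Cd247, with departures of -0.16, -0.70 and -0.10. Genes most like a member were ranked by Pearson r over the 9 arrays, a value that includes the differences between the groups. Predicted loci, clone names, and genes of immunoglobulins and T cell receptors were left out of this ranking, so their likeness was not read. For Cd3e these were Ss18 (0.976), Bsdc1 (0.975), Cobl (0.962), the lymphocyte protease gene Ctsw (0.962) and Cntd1 (0.951). Il2ra was most like Bcl2a1c, Sowahb, Nmd3, Srp68 and Rlim (0.994 to 0.997), and Foxp3 most like Specc1, Csta2, Muc1, Klhl6 and Plekho2 (0.981 to 0.990).

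Counts in the lists that follow stand beside the shares of all genes called, 22.3% higher and 23.3% lower with anisomycin and 20.4% higher and 22.4% lower with imiquimod, and several lists lie near them. Of 23 measured receptor signalling genes, 5 rose and 9 fell with anisomycin (median difference -0.05), and 4 rose and 7 fell with imiquimod (median 0.00), so the counts of rises were near the shares over all genes. The rises were led by Lcp2, the adaptor SLP-76, at 1.95 with anisomycin and 1.58 with imiquimod, by Ptprc, the pan-leukocyte phosphatase CD45, at 1.21 and 1.08, and by Rhoh, a GTPase of blood cells, at 0.82 and 0.54. Neutrophils and macrophages also express Lcp2 and Ptprc, and markers of those cells rose in the same arrays: 8 of 8 neutrophil genes with either treatment, and 7 of 8 macrophage and monocyte genes with anisomycin and 6 of 8 with imiquimod. The mean level of the 8 neutrophil genes was 8.56 to 8.98 in anisomycin arrays, 8.97 to 9.12 in imiquimod arrays and 5.04 to 5.18 in vehicle arrays, and their part in these rises was not tested. The falls included Cd96, a receptor of T and natural killer cells, which read 4.94, 4.85 and 5.15 in anisomycin ears, 4.95, 5.04 and 5.15 in imiquimod ears, and 5.98, 5.54 and 5.78 in vehicle ears. Its differences were -0.78 with anisomycin and -0.72 with imiquimod. Cd96 was dim, with a mean of 5.27 over the 9 arrays. Rasgrp1, an activator of Ras below the receptor, fell with anisomycin (-0.94, adjusted p = 0.00225) and was lower there than with imiquimod (-1.13, adjusted p = 0.00336). Prkcq, the kinase PKC theta, likewise fell with anisomycin (-0.55) and was lower there than with imiquimod (-0.66, adjusted p = 0.00662). The kinase gene Zap70 and the costimulatory receptor gene Cd28 were dim, at means of 4.57 and 4.89 in anisomycin ears, 4.60 and 4.70 in imiquimod ears, and 4.73 and 4.92 in vehicle ears. Zap70 was not called against vehicle, and Cd28 fell with imiquimod (-0.22, adjusted p = 0.00815). Both are named after their values were seen.

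Other regulatory T cell genes did not all follow Foxp3. Of 14 measured, beside Foxp3, Ctla4 and Il2ra, 7 rose and 4 fell with anisomycin (median 0.24), and 3 rose and 3 fell with imiquimod (median 0.03). Lrrc32, which encodes GARP, the surface anchor of latent TGF-beta, read 9.37, 8.79 and 8.26 in anisomycin ears, 7.75, 7.84 and 7.66 in imiquimod ears, and 7.67, 7.87 and 7.71 in vehicle ears. All anisomycin arrays were higher than the rest, with a wide spread among them. Tnfrsf9, the costimulatory receptor 4-1BB, rose with anisomycin by 0.73 (adjusted p = 0.000555) and exceeded imiquimod by 0.49 (adjusted p = 0.0157). Against these, Ikzf2, the factor Helios, fell with anisomycin (-0.83) and with imiquimod (-0.81), as did Ikzf4, the factor Eos (-0.69 and -0.58). Ccr4, a skin-homing chemokine receptor, read 6.71, 6.88 and 7.31 in anisomycin ears, 8.12, 8.24 and 8.36 in imiquimod ears, and 8.50, 8.08 and 8.23 in vehicle ears. It was lower with anisomycin than with either other group, by differences of -1.30 from vehicle and -1.27 from imiquimod. Several of these genes, among them Lrrc32 and Ikzf2, are also expressed by cells other than T cells.

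T cell transcription factors held both rises and falls. Of 12 measured, 4 rose and 4 fell with anisomycin, and 2 rose and 3 fell with imiquimod (medians -0.09 and -0.08), the imiquimod counts being near the shares over all genes. Ets1, a factor used by lymphocytes and endothelium, read 8.31, 8.07 and 7.81 in anisomycin ears, 6.70, 6.83 and 6.59 in imiquimod ears, and 6.76, 6.90 and 6.76 in vehicle ears. Anisomycin arrays stood above the others, by 1.25 over vehicle and 1.35 over imiquimod (adjusted p = 2.18e-05 and 0.000158), and imiquimod differed from vehicle by -0.10, not called. Gata3, which directs T cell and innate lymphoid fates and is also strong in epidermis and hair follicles, fell by a difference of -1.35 with anisomycin and of -0.61 with imiquimod. Lef1 fell with both treatments (-0.48 for each), and Satb1 fell with anisomycin (-0.25) and with imiquimod (-0.66). Zbtb7b fell with anisomycin (-0.39). The rises beside Ets1 were those of Ikzf1 with anisomycin (0.42) and imiquimod (0.33), and of Runx3 (0.45) and Ikzf3 (0.27) with anisomycin. Ikzf3 was dim, with a mean of 4.78 over the 9 arrays. Bcl11b rose with imiquimod (0.41, adjusted p = 0.0267) and was not called with anisomycin (-0.16). These factors were read in whole skin, and whether their changes lay in T cells or in other cells was not tested.

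Most effector cytokine genes were not called. All those measured but Il13 and Il17f were dim, with means over the 9 arrays below 5.29. Signal over background was not tested for them. Of 12 measured T cell cytokines 2 rose and 10 were not called with anisomycin, and 1 rose, 1 fell and 10 were not called with imiquimod. Csf2, which encodes GM-CSF, was higher with anisomycin by 0.78 against vehicle and 0.69 against imiquimod, and Il4 rose by 0.16. Il17f, a cytokine of gamma-delta and Th17 cells, read 5.63, 5.51 and 5.56 in anisomycin ears, 6.54, 6.36 and 6.25 in imiquimod ears, and 5.56, 5.53 and 5.58 in vehicle ears. It was thus raised with imiquimod, in the group in which Cd3e and Cd3g were lower than in vehicle. The cytotoxic list of 14 genes gave 3 rises and 4 falls with anisomycin, and 3 rises and 1 fall with imiquimod. Nkg7, a granule membrane gene, read 5.87, 5.80 and 5.86 in anisomycin ears, 6.47, 6.38 and 6.79 in imiquimod ears, and 6.90, 6.49 and 6.82 in vehicle ears. It fell with anisomycin (-0.90, adjusted p = 0.000275), where Ctsw fell as well (-0.48; -0.26 with imiquimod, not called). The chemokine gene Xcl1 fell with anisomycin (-0.44) and with imiquimod (-0.46). Gzmb, which encodes the granule protease granzyme B, rose with anisomycin (0.55) and with imiquimod (0.51). Xcl1 and Gzmb were dim as well, with means of 4.6 and 4.9 over the 9 arrays. The T cell chemoattractant Ccl5 rose by 0.36 with anisomycin and by 0.75 with imiquimod, and was lower with anisomycin than with imiquimod (-0.39).

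Genes tied to gamma-delta and skin-resident T cells were tested through 8 genes. With anisomycin 1 of them fell, and with imiquimod 2 fell. Itgae, the integrin chain that anchors lymphocytes to E-cadherin of the epidermis, fell with anisomycin (-0.21, adjusted p = 0.0385) and with imiquimod (-0.26, adjusted p = 0.0156). Cd7 fell with imiquimod (-0.66, adjusted p = 0.00748). The median over the 8 genes was -0.06 with anisomycin and -0.02 with imiquimod. Of the 14 genes listed, those of the receptor constant regions (Tcrg-C1, Tcrg-C2, Tcrg-C3, Tcrg-C4, Trdc and Trgc1) were not measured. Il23r, Ccr6 and 5830411N06Rik were dim, with means over the 9 arrays below 5.29. The number of gamma-delta T cells was therefore not read.

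The IL-2 and IL-7 receptor systems were followed through further ligands, chains and feedback genes. Of 12 measured, 8 rose and 1 fell with anisomycin (median 0.32), and 2 rose and 1 fell with imiquimod (median 0.12). Tslp, whose product binds the receptor that contains Il7r, read 7.02, 7.57 and 7.93 in anisomycin ears, 5.57, 5.73 and 5.72 in imiquimod ears, and 5.26, 4.91 and 5.32 in vehicle ears. Its difference was 2.34 from vehicle and 1.83 from imiquimod (adjusted p = 1.39e-05 and 0.000527). The anisomycin array with the highest Tslp, replicate 3, had the lowest Il7r of its group, and also the lowest Il2ra, Foxp3 and Ctla4. A link between Tslp and Il7r was not tested. Crlf2, the partner chain in the TSLP receptor, rose with anisomycin by 0.39. Il4ra, the IL-4 receptor alpha chain, rose with both treatments, by 2.53 and 1.64. Il15, which supports skin lymphocytes, rose with anisomycin (0.56), as did Cish, a feedback inhibitor induced by STAT5 (0.50). The cytokine gene Il7 itself fell slightly with anisomycin (-0.15) and with imiquimod (-0.19), and was dim, with a mean of 4.62 over the 9 arrays.

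Ligands for Ctla4 and other costimulatory or coinhibitory receptors were read as a further list. Of 11 costimulatory and coinhibitory ligands, 7 rose and 4 were not called with anisomycin (median 0.58), and 6 rose and 1 fell with imiquimod (median 0.26). The fall was that of Tnfsf18, the ligand of GITR (-0.38), which was dim, with a mean of 5.01 over the 9 arrays. Cd80, the ligand shared by CD28 and CTLA-4, read 9.06, 9.11 and 8.52 in anisomycin ears, 7.68, 7.32 and 7.96 in imiquimod ears, and 6.20, 5.73 and 6.26 in vehicle ears. The groups were separated, with differences of 2.84 for anisomycin and 1.60 for imiquimod against vehicle, and of 1.24 between the treatments. Cd86, the other ligand of both receptors, rose with anisomycin (0.58, adjusted p = 0.000272) and was not called with imiquimod (0.07, adjusted p = 0.549). Cd274, which encodes PD-L1, rose by 1.80 with anisomycin and 1.69 with imiquimod. Pvr, a ligand of CD96 and TIGIT, rose by 1.81 with anisomycin and by 0.37 with imiquimod, and anisomycin exceeded imiquimod by 1.44. In the homing list of 10 genes, 7 rose and 1 fell with anisomycin, and 6 rose and 1 fell with imiquimod. The fall was that of Klf2 with either treatment (-0.37 with anisomycin and -0.47 with imiquimod). The rises were led by the adhesion receptor Cd44 (2.20 and 1.81). Cd44 is not limited to T cells, and the part of other cells in these rises was not tested. Ccr7, which guides T cells and mature dendritic cells to lymph nodes, rose by 1.87 and 0.84, and anisomycin exceeded imiquimod by 1.03.

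**Figure D3:**
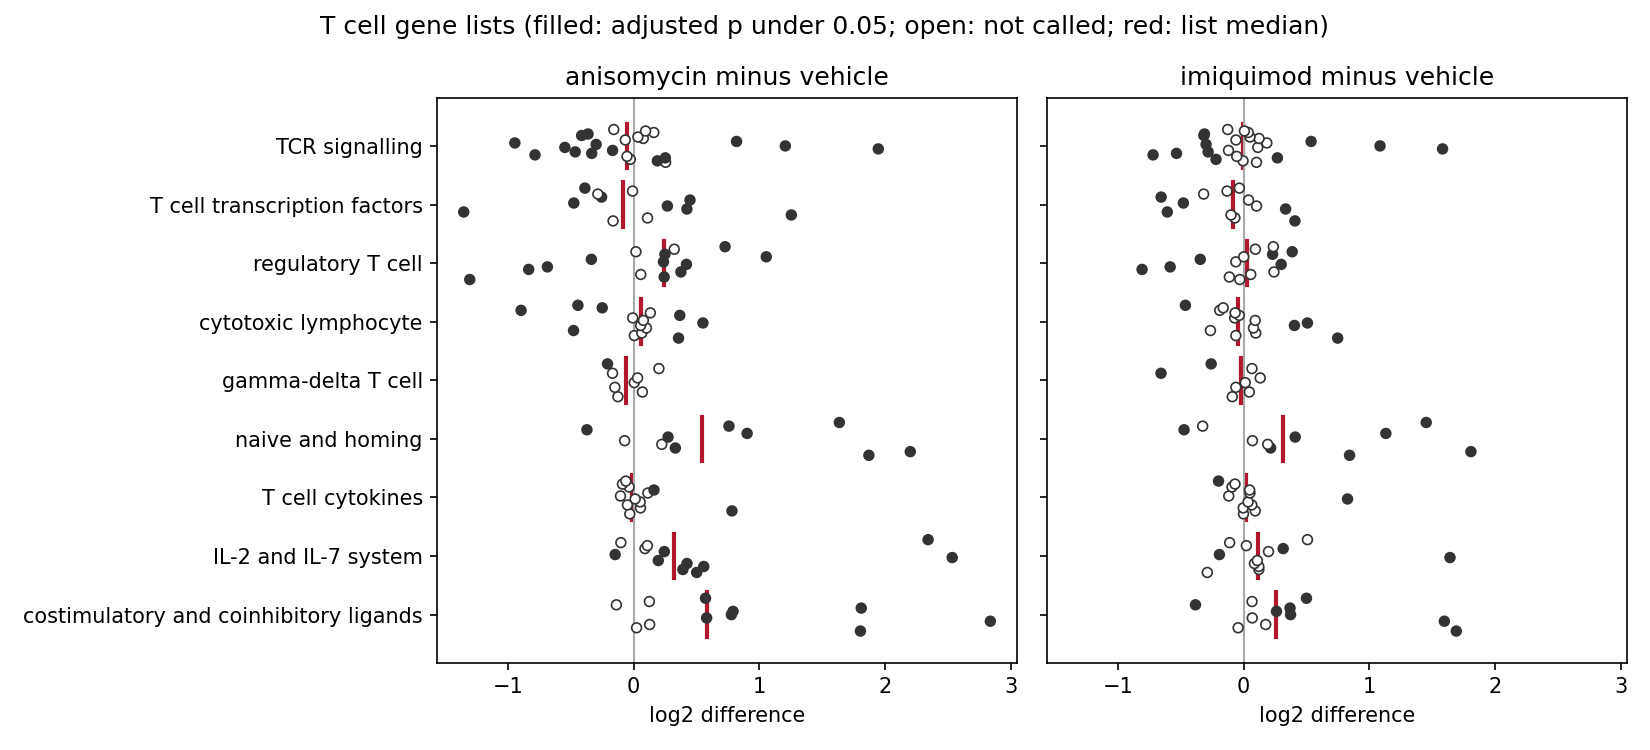
Log2 differences from vehicle of the measured genes of 9 lists, for anisomycin (left) and imiquimod (right); each point is a gene, filled where called at an adjusted p under 0.05, and the red bar is the list median. The medians of the receptor signalling, transcription factor, gamma-delta and cytokine lists lie within 0.10 of 0, and those of the costimulatory ligand list are 0.58 and 0.26.

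Markers of cells that can share Il2ra, Il7r or Ccr7 with T cells were read beside them. Of 10 dendritic cell genes, 5 rose and 1 fell with anisomycin, and 3 rose and 3 fell with imiquimod. Fscn1, an actin bundler of mature dendritic cells, rose by 2.35 and 1.62, and Itgax, which encodes CD11c, rose with anisomycin by 1.45 and exceeded imiquimod by 1.14. For imiquimod against vehicle Itgax was not called (0.31). Cd207, the Langerhans cell lectin, fell with both (-0.83 and -0.44), and was dim, with a mean of 5.04 over the 9 arrays. Cd209a (-1.22, adjusted p = 0.000779) and Flt3 (-0.29) fell with imiquimod, and neither was called with anisomycin (-0.46 and 0.06). Zbtb46 (-0.11) and Xcr1 (-0.0007) were not called with anisomycin either. The median difference over the 10 genes was 0.12 with anisomycin and -0.01 with imiquimod. The mean level of the 10 dendritic cell genes was 6.35 to 6.41 in anisomycin arrays, 6.08 to 6.18 in imiquimod arrays and 5.97 to 6.10 in vehicle arrays, and the part of these cells in the rises of Il2ra, Il7r and Ctla4 was not tested. Of 6 mast cell and innate lymphoid genes, 4 fell with anisomycin and 5 with imiquimod. The 5 were the mast cell genes Kit, Tpsb2, Cpa3, Mcpt4 and Cma1. Rora, listed for innate lymphoid cells, fell with anisomycin (-1.25) and was not called with imiquimod (-0.35, adjusted p = 0.141). Il1rl1 and Areg of this list were not measured. Innate lymphoid cells were thus read here through Rora alone, and which cells of the skin lay behind its fall was not tested. Of 7 B cell genes, 1 rose with imiquimod, Blnk at 0.79, while Ms4a1 and Cd79a, which define B cells, had means between 3.76 and 3.95 in the 3 groups. Of 7 keratinocyte genes, 3 rose and 2 fell with anisomycin, and 4 rose and 1 fell with imiquimod. The rises were led by Krt1 (1.35 and 2.34) and Dsg3 (2.25 and 1.76). Col17a1 fell with both treatments (-0.45 and -0.58) and Krt10 with anisomycin (-0.69), and Trp63 was not called (-0.11 and -0.05). The mean level of the 7 genes was 11.47 to 11.70 in anisomycin arrays, 11.73 in each imiquimod array and 10.90 to 11.25 in vehicle arrays. The part of a changed share of epidermal RNA in the lower CD3 values was not tested.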

How the data were processed

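Total RNA of whole ear skin, 9 samples with 3 a group per the labels, was hybridised to Affymetrix Mouse Gene 1.0 ST arrays. The authors deposited log2 expression values made with RMA, per the submitters' processing notes; the log2 scale is judged from their range of 2.39 to 13.97. The RMA version and the set of arrays it was run on are not stated by the labels. The labels do not say whether the samples of a group came from separate animals, so p-values measure the spread between these samples, which may be technical.

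Of 35556 rows, 21789 carried 1 symbol by the platform annotation. The probe set with the highest mean was kept per symbol, leaving 19938 genes. Each was fitted with limma 3.58.1 (R 4.3.3), a mean per group over 9 arrays, 6 residual and 3.16 prior degrees of freedom, two-sided, with Benjamini-Hochberg adjustment within a contrast. Precision is limited by having 3 arrays a group. The fit was tested on simulated data. Alternatives changed the scaling, the filter on dim genes, array weights, the groups fitted, the replicate block and the arrays included.

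The 10 genes, and 10 lists of T cell genes and 7 of other cells, were chosen with earlier results of these data known. Of the 10 T cell lists, that of receptor segments had no measured member. The genes named from a list are up to 4 called genes by size of change per comparison, and further names are given with their values as background to a member, or were chosen after their values were seen. Motif letters were searched in RefSeq promoter windows.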

Additional observations from a re-analysis of the deposited data

How the results depend on the processing

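Of 15 calls among the 10 genes, none changed sign under 9 other ways of processing, under leaving out each of 9 arrays, or under cyclic loess, which was added after the data had been seen. The call of Cd247 for anisomycin ended under 3 of these and under cyclic loess, as given with its values, and 4 calls ended when 1 array was left out. Scaling moved the median of all genes by at most 0.08. The number of these genes called higher with imiquimod became 2 with arrays centred on their medians, with repeated quantile normalization, with the fit of those groups alone and after cyclic loess, in place of 1, and was 1 to 2 without 1 array. Genes called between the treatments, 4059, became 8557 with array weights and 2523 to 4766 without 1 array, and the count of the 10 genes called higher was 2 to 4 without 1 array.

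Signs turned only for uncalled, small differences. For anisomycin against vehicle, Cd3d became 0.033 with median centring, 0.001 with array weights and 0.016 after cyclic loess, and lay between -0.0297 and 0.012 without 1 array, while Cd8a became -0.0026 with array weights and lay between -0.0005 and 0.13 without 1 array. For imiquimod against vehicle, Cd3d became -0.066 with stable-gene centring and lay between -0.0052 and 0.013 without 1 array. There Cd8a became 0.0089 after cyclic loess. Il7r became 0.0202 with median centring, 0.034 with repeated quantiles and 0.077 after cyclic loess, and lay between -0.12 and 0.064 without 1 array. Between the treatments Cd3d became 0.0008 with array weights and lay between -0.036 and 0.0052 without 1 array. Leaving out the dimmest 30% of genes removed Cd3d and Ctla4.

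Arrays of the same number share only a number: their deviations from the group means correlated at -0.20 to 0.20, and 2 of 9 arrays correlated best with their own number. With the replicate number as a block, 8924, 8280 and 3734 genes were called for anisomycin against vehicle, imiquimod against vehicle and between the treatments, and 5 of the 10 genes were higher with anisomycin than with imiquimod, Cd4 among them (adjusted p = 0.0468). With array weights Cd247 was called higher with anisomycin than with imiquimod (0.11, adjusted p = 0.0395).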

Other observations

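Rearranged variable segments of the T cell receptor were collected by symbol after the other results had been seen, since the listed segment names were not in the annotation. Over all genes, 45.6% were called with anisomycin and 42.7% with imiquimod, both against vehicle. Of 9 segment genes with a row of 1 symbol, 8 were not called for either treatment against vehicle. The exception, singled out after its values were seen, was Trgv1, a gamma chain segment. It read 4.66, 4.52 and 4.61 in anisomycin ears, 4.35, 4.34 and 4.64 in imiquimod ears, and 5.25, 5.18 and 5.31 in vehicle ears. Trgv1 was lower than in vehicle by differences of -0.65 with anisomycin and -0.81 with imiquimod (limma adjusted p = 0.000184 and 6.13e-05). Gamma segments resemble each other closely and may cross-hybridise, so which of them this row reads is uncertain, and the row is dim, with a mean of 4.76 over the 9 arrays. Between the treatments 1 segment of the 9, Trav7n-5, was higher with anisomycin (0.29, adjusted p = 0.044), near the 10.8% of all genes called higher. All segments but Trav13-5 and Trbv1 had means over the 9 arrays below 5.29, that of Trav7n-5 being 3.87.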
